A study of Mus musculus with 12 samples.

Results

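The comparison set 3 hypothalamus pools of mice labelled early high alcohol drinkers against 3 pools labelled low alcohol drinkers. These 6 arrays were chosen by their titles from the 12 arrays of the series, and no measured value entered the choice. All mice were male ICR, an outbred stock, and they entered the study at 3 weeks of age with water in both tubes for the first days, after which alcohol was offered from adolescence into adulthood. Every mouse of both groups had 1 tube of water and 1 tube of alcohol, at 5% or 10%, and the labels do not say which pool held mice of which concentration. The sacrifice day was 51 in the sample labels and 57 in the design text. The remaining arrays were 3 pools of mice given water only and 3 pools of late high alcohol drinkers, with alcohol access as above. RNA of 1 to 3 mice went into each alcohol pool, and RNA of 3 mice into each water pool. The words early and late are not defined in the labels, and they give no intake for single arrays. The study's text and supplement state intake for sets of pools and the mice in each pool, but the labels do not tie those pools to the arrays. Pools are the replicates. A p-value of limma here sets the difference against a spread within groups estimated over all 12 arrays, unless fewer arrays are named.

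The hypothalamus sets appetite, stress, body temperature and reproduction through small groups of peptide neurons. Its lower end continues into the pituitary stalk, which is wrapped by the pars tuberalis, the part of the anterior pituitary that lies closest to the brain. Anterior pituitary cells make glycoprotein hormones from a shared alpha chain, encoded by Cga, and a beta chain that gives each hormone its identity, Tshb for thyrotropin, Lhb for luteinizing hormone and Fshb for follicle-stimulating hormone. Cells of the pars tuberalis are known for Cga and Tshb. Pitx1 is a homeodomain factor of the pituitary lineage.

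The clearest group of differences was in these pituitary genes, and the stretches before the start sites of 3 of the hormone genes are shown because each of these genes was lower on every early high array than on every low array. Each stretch is the 250 bases before the start site, read 5′ to 3′ on the strand of the gene in GRCm38.p6 from RefSeq. Capitals mark matches on either strand to the TATA box (TATAAA), to a form of the cAMP response element (TGANGTCA) or to the bicoid-type homeodomain motif (TAATCC).
Cga, chr4:34893529-34893778, plus strand: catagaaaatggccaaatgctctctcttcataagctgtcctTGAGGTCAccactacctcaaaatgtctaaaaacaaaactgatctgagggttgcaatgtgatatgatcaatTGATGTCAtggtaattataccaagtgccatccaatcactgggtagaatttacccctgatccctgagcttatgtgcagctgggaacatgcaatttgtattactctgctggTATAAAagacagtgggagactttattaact
Tshb, chr3:102782715-102782964, minus strand: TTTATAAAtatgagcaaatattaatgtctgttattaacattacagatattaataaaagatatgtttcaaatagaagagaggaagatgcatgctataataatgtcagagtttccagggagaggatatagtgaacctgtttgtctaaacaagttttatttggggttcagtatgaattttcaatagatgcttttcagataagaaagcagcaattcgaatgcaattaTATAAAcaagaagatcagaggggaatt
Lhb, chr7:45420696-45420945, plus strand: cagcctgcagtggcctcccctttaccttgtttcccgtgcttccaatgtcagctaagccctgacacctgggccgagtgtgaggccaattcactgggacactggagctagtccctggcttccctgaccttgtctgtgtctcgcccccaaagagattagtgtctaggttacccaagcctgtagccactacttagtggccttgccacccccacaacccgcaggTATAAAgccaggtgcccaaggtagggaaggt

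Of 16 genes tested from 2 pituitary lists, 10 had a promoter in the RefSeq table, and 5 of these were hormone genes, Cga, Tshb, Lhb, Fshb and Prl. All 5 hormone promoters held TATAAA, which 12.9% of 27025 promoters of the same length held. Its first base lay at -30 in Cga, -27 in Tshb and -31 in Lhb, counted back from the start site, and the pair of matches at the far end of the Tshb stretch overlapped. TGANGTCA was in 1 of the 5, Cga, with first bases at -209 and -139, against 7.65% of all promoters. TAATCC was in 0 of the 5 and in 6.42% of all promoters. These are matches of letters and not measured sites.

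Levels are given on a log2 scale as the signal of a probe minus the 75th percentile of its array, so that 0 is a bright spot and -6 is near background. A difference is the mean of the early high pools minus the mean of the low pools. The arrays carried 43379 spots each, of which 29072 to 34398 (67.0% to 79.3%) were well above background, and no spot was saturated. Slide 1 held the water pools and low pool 1, slide 2 held low pools 2 and 3 with early high pools 1 and 2, and slide 3 held early high pool 3 with the late high pools. The 2 against 2 pools of slide 2 were therefore also compared alone, since slide cannot be a difference there. Low pool 2 stood apart in dim spots. Its negative controls averaged a signal of 68.4, against 41.9 to 54.5 on the other arrays. Over the dimmest 8091 probes it lay 0.94 above the mean of all arrays, while the other 5 arrays of the comparison lay between -0.21 and 0.27.

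The number of differences over the whole array depended on how slide and scan day were treated. Of 32363 probes tested with limma, 2 (0.00618%) passed a Benjamini-Hochberg adjusted p of 0.05, both lower in early high drinkers. With slide as a block there were 44 and with scan day as a block 1311, while the 4 arrays of slide 2 alone gave 0. At an unadjusted p under 0.05 there were 1965 probes (6.07%), of which 405 were higher (1.25%) and 1560 lower (4.82%) in early high drinkers. The surplus of lower probes lay at the dim end. Among the dimmest 8091 probes 938 probes were lower and 87 higher, with a median difference of -0.30. Among the brightest 8091 152 were lower and 120 higher, with a median of -0.01. Without low pool 2 the counts over all probes were 615 lower and 803 higher, and the median of the dim probes was 0.05. Scaling the arrays by quantiles gave 1081 lower and 1179 higher, so that the share of higher calls was 52.2% in place of 20.6%. The share was 51.6% with median scaling, 48.8% with cyclic loess and 33.2% with no scaling, and it was 10.6% with normexp background correction. On slide 2 alone 30260 probes were tested in limma, 0 passed the adjusted p, and at an unadjusted p under 0.05 there were 1708 lower (5.64%) and 413 higher (1.36%). Genes are described below by their single values, with the unadjusted p of limma named as such.

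**Figure D1:**
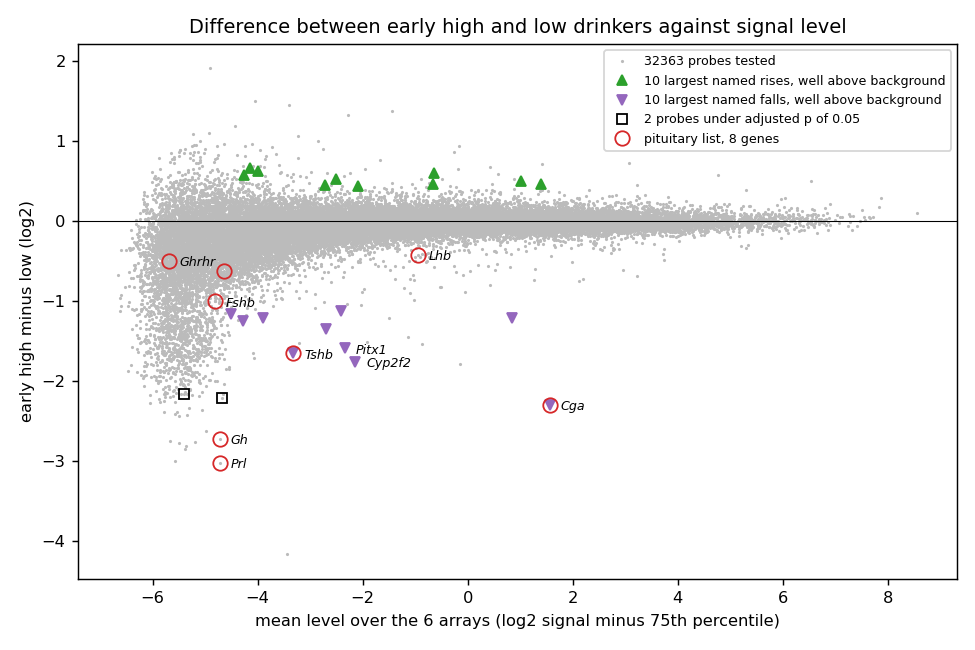
Early high minus low difference (log2, vertical axis) against the mean level of the 6 arrays (log2 signal minus the 75th percentile, horizontal axis) for 32363 probes, with the 10 largest named rises and falls, the 2 probes under an adjusted p of 0.05 and the 8 pituitary genes marked. The spread is widest below a level of -4 and tilts downward there, while Cga at -2.30 lies far from other probes of its brightness.

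Cga was the largest difference among probes that were well above background on all 6 arrays with a gene symbol and without overlap of the groups. Its level was 2.78, 2.59 and 2.79 in low pools 1 to 3, and 1.14, -1.41 and 1.53 in early high pools 1 to 3. All early high pools lay below all low pools, and early high pool 2 was the lowest by far. The difference was -2.30 ± 0.73 (SE, n = 3 against 3, unadjusted p = 0.0111 and adjusted p = 0.598 in limma), which is 0.203 of the low level. Water pools ranged from 1.31 to 3.44 and late high pools from 1.79 to 2.52, so the low pools lay inside the range of the water pools and water pool 1 lay among the early high pools. Without early high pool 2 the difference of Cga was -1.38 (unadjusted p = 0.0252 in limma). On slide 2 alone it was -2.83 (unadjusted p = 0.048 in limma). The probe of Cga lies at chr4:34854483-34854542 in mm9, as the array files give it, and begins with tgacgcgcttcagttacacactgcctcttt.

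Tshb, the thyrotropin beta chain, was likewise separate. Its level was -2.57, -2.38 and -2.51 in low pools and -3.45, -5.30 and -3.69 in early high pools. Again no pool overlapped and early high pool 2 was lowest. The difference was -1.66 ± 0.43 (SE, unadjusted p = 0.0032 and adjusted p = 0.433 in limma), and -1.08 without early high pool 2. It was -1.93 on slide 2 alone and did not pass there (unadjusted p = 0.0573 in limma). Water pools lay between -3.10 and -2.58 and late high pools between -3.21 and -2.34, above every early high pool. The probe lies at chr3:102581608-102582092 in mm9, a span longer than the probe itself, and begins with ctgggtattgtatgacacgggatatcaatg. A second and dimmer Tshb probe at chr3:102583248-102583307 in mm9, well above background on 1 low and 2 early high arrays, differed by -0.09 ± 0.15 (SE).

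Lhb, the luteinizing hormone beta chain, moved less. It stood at -0.84, -0.71 and -0.64 in low pools and at -0.96, -1.04 and -1.48 in early high pools, a difference of -0.43 ± 0.17 (SE, unadjusted p = 0.0303 in limma). Without early high pool 3, the lowest, it was -0.26 (unadjusted p = 0.123 in limma), and the call was also lost without low pool 2 or low pool 3. Late high pools, at -1.63 to -1.21, overlapped the early high pools. Water pools lay at -0.996 to -0.545, with early high pool 1 inside that range. Fshb, the follicle-stimulating hormone beta chain, was dim, at -4.73, -3.76 and -4.45 against -5.40, -4.94 and -5.61, and its difference of -1.003 ± 0.451 (SE) did not pass (unadjusted p = 0.0511 in limma). Both genes had every early high pool under every low pool.

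Gh and Prl, the growth hormone and prolactin genes of the distal anterior pituitary, were well above background on only 4 and 2 of the 6 arrays. Gh was at -0.93, -4.14 and -5.01 in low pools and at -6.32, -6.23 and -5.70 in early high pools. Prl was at 0.36, -4.87 and -5.10 in low pools and at -6.21, -6.87 and -5.59 in early high pools. Low pool 1 alone was high for both, and their size rested on it. The difference of Gh was -2.73 ± 0.98 (SE, unadjusted p = 0.0218 in limma) with low pool 1 and -1.51 without it, and the call of Gh was lost without early high pool 1 or 2, and Prl did not pass (unadjusted p = 0.0538 in limma), with no size given because 1 array of each group was well above background.

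The pituitary list holds 10 genes, 9 of them on the array and 8 tested. All 8 had a lower mean in early high drinkers, as had 11841 of 18148 named genes with 1 probe each. At an unadjusted p under 0.05 there were 4, Gh, Cga, Lhb and Tshb, against 4.82% of all probes in that direction, and 0 passed the adjusted p. The count was 3 with quantile scaling, where Gh did not pass, 3 with cyclic loess, 3 without early high pool 1 or 3, 6 without low pool 1 and 5 on slide 2 alone. In 6 of the 8 every early high pool lay below every low pool, which held for 6.08% of the 29838 probes with a value on all 6 arrays. The list's median difference was -1.33, against -0.04 over 18148 named genes with 1 probe each. Only 3 of the 8, Cga, Lhb and Tshb, were well above background on all 6 arrays. Ghrhr, the receptor for growth hormone-releasing hormone, differed by -0.50 ± 0.37 (SE) and overlapped. The summed level of the 8 genes was 7.11 to 9.49 times the 75th percentile in low pools and 1.01 to 3.43 in early high pools, with 3.31 to 12.5 in water pools and 3.96 to 6.50 in late high pools. The median was -1.17 without low pool 2, -1.14 without early high pool 2 and -1.31 on slide 2 alone, and all 8 genes stayed lower in each. In bulk tissue, fewer cells of a type and less RNA per cell cannot be told apart, and the part of tissue taken at dissection in these values was not tested.

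**Figure D2:**
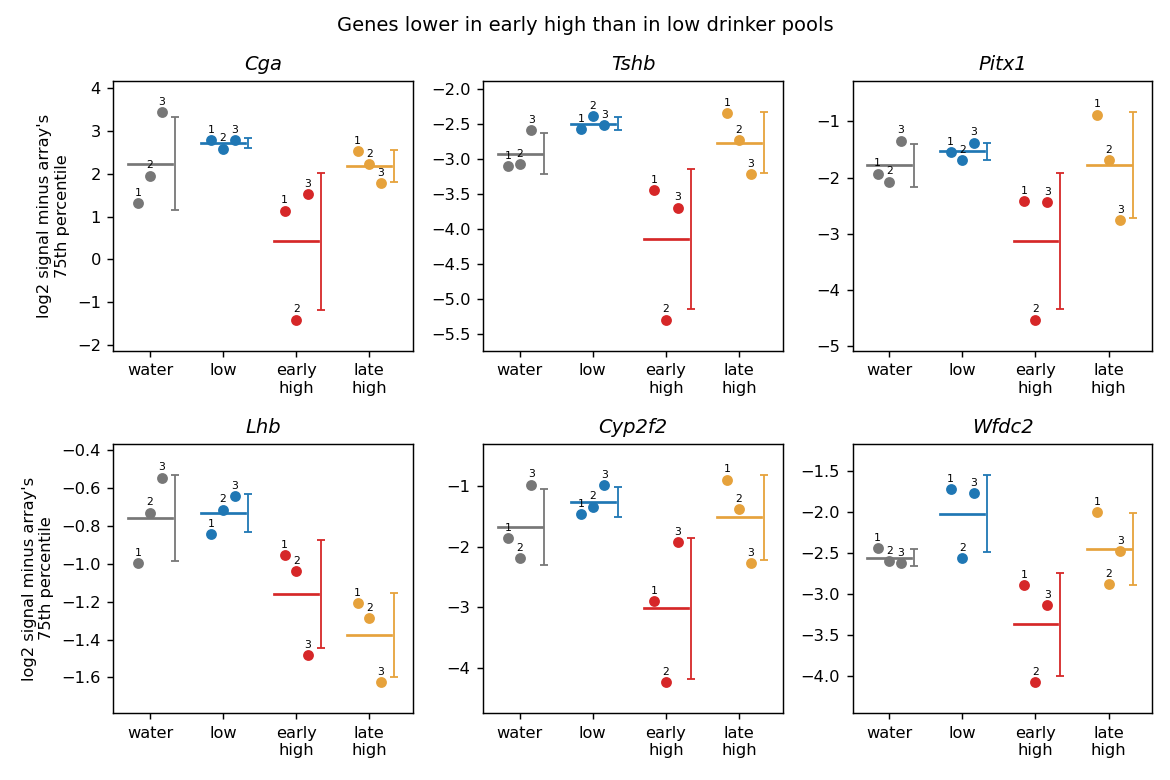
Level (log2 signal minus the 75th percentile of the array) of 6 genes on all 12 arrays, in groups of 3 pools, where points are pools with their replicate number, bars are means and whiskers are ± 1 SD. In each panel the 3 early high pools lie below the 3 low pools, and early high pool 2 is lowest in all but Lhb.

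Pitx1 stood at -1.54, -1.69 and -1.38 in low pools and at -2.42, -4.52 and -2.44 in early high pools, a difference of -1.59 ± 0.59 (SE, unadjusted p = 0.0233 in limma). No early high pool reached a low pool, and without early high pool 2 the difference of Pitx1 was -0.89 (unadjusted p = 0.0797 in limma). It did not pass on slide 2 alone either (unadjusted p = 0.0791 in limma). Water pools of Pitx1 ranged from -2.07 to -1.34 and late high pools from -2.755 to -0.88, so late high pool 3 lay below early high pools 1 and 3. The other regulators named here had smaller differences, none of which passed. Six6, a factor of retina, hypothalamus and pituitary, differed by -0.04 ± 0.14 (SE). Eya3, a transcriptional coactivator, differed by -0.02 ± 0.07 (SE), and Gata2, a factor of the cells that make Tshb, by -0.18 ± 0.11 (SE). In a list of such regulators and pars tuberalis genes put together after the values were seen, 8 of 9 tested genes had a lower mean in early high drinkers, with a median of -0.31. With quantile scaling that median was -0.08, with 6 of the 9 lower, and without low pool 2 it was -0.13.

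Cyp2f2, a cytochrome P450 known from secretory cells of the airway, followed the pituitary genes. It stood at -1.46, -1.34 and -0.98 in low pools and at -2.90, -4.24 and -1.92 in early high pools. The groups did not overlap and early high pool 2 was again lowest, with a difference of -1.76 ± 0.57 (SE, unadjusted p = 0.0116 in limma), -1.15 without that pool and -2.41 on slide 2 alone. Water pools of Cyp2f2 ranged from -2.18 to -0.97 and late high pools from -2.28 to -0.89, so early high pool 3 lay inside both ranges. Wfdc2, a secreted protein of epithelia with protease inhibitor domains, stood at -1.73, -2.57 and -1.77 against -2.89, -4.08 and -3.14, a difference of -1.35 ± 0.34 (SE, unadjusted p = 0.0028 in limma) that did not pass on slide 2 alone (unadjusted p = 0.0783 in limma). Water pools lay at -2.63 to -2.44 for Wfdc2, above every early high pool and level with low pool 2.

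The other large falls among bright, separate probes were of mixed kinds. Nt5dc3, of the 5'-nucleotidase domain family, stood at 1.26, 1.07 and 1.99 in low pools and at 0.13, 0.18 and 0.38 in early high pools, a difference of -1.21 ± 0.35 (SE, unadjusted p = 0.0066 in limma). Of the water pools 1 stood at 1.72 and the others at 0.36, so both levels occurred without alcohol. Rab27a, a small GTPase of vesicle release, stood at -1.55, -1.78 and -2.19 against -3.80, -2.67 and -2.44, a difference of -1.12 ± 0.34 (SE) that was -0.71 without early high pool 1 and did not pass on slide 2 alone (unadjusted p = 0.0585 in limma). Late high pools were at -3.88 to -3.11 and water pools at -1.91 to -1.66, so that Rab27a was lower in both high drinking groups than in any low or water pool. A second, dimmer Rab27a probe differed by 0.07 ± 0.25 (SE).

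Car8, a protein related to carbonic anhydrases that acts on the IP3 receptor, had a difference of -1.17 ± 0.36 (SE) on a probe at levels of -4.16 to -3.61 in low pools and -5.71 to -4.72 in early high pools. Its brighter probe differed by -0.31 ± 0.15 (SE, unadjusted p = 0.061 in limma). Tssk4, a kinase of the testis, stood at -3.39, -3.29 and -4.29 in low pools and at -4.65, -4.98 and -5.12 in early high pools, while water and late high pools lay between -5.44 and -5.10, and the difference was -1.26 ± 0.24 (SE), -0.75 with normexp, and did not pass on slide 2 alone (unadjusted p = 0.0703 in limma). For Tssk4 the low pools were thus the group that stood apart, and a second, brighter probe differed by -0.42 ± 0.41 (SE). The transcript D430036J16Rik stood at -3.41 to -3.18 in low pools and at -4.61 to -4.40 in early high pools, a difference of -1.21 ± 0.23 (SE, unadjusted p = 0.0007 in limma).

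The 2 probes that passed the adjusted p were dim. The probe of Gpr37, an orphan receptor of oligodendrocytes and neurons, at chr6:25618284-25618343 in mm9 had values on 4 of the 6 arrays, -4.40 and -4.23 in low pools 2 and 3 and -6.55 and -6.39 in early high pools 2 and 3. It was well above background on 2 of 3 low arrays and on 0 of 3 early high arrays (adjusted p = 0.0112 in limma). Low pool 1 had no value for this probe, so no size is given. The other Gpr37 probes were brighter and differed by -0.01 ± 0.15 and -0.04 ± 0.13 (SE). The second probe, of the transcript AK083162 on chromosome 18, stood at -3.49 and -3.66 in low pools 1 and 2 and at -5.66 and -5.92 in early high pools 2 and 3 (adjusted p = 0.0112 in limma). It was well above background on 2 of 3 low and 1 of 3 early high arrays, so no size is given. Both rested on 2 values a group, and water and late high means were -5.62 and -5.49 for AK083162, close to the early high pools.

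Rises were smaller than falls. Of the probes well above background on all 6 arrays, with a symbol, without overlap and at an unadjusted p under 0.05, 246 were higher and 487 lower. That balance depended on the processing, since over all probes well above background on the 6 arrays 326 were higher and 698 lower at that p, against 861 and 475 with quantile scaling and 614 and 521 without low pool 2. Non-overlap alone held upward for 1007 of 29838 probes (3.37%). With 75th percentile scaling the largest such rise was of Cenpk, a kinetochore protein, at -4.35, -4.62 and -4.49 in low pools and -4.03, -3.96 and -3.48 in early high pools, a difference of 0.66 ± 0.15 (SE, unadjusted p = 0.0012 in limma). The size of dim rises depended on scaling and background, at 1.12 with quantile scaling and 0.32 with normexp for Cenpk. A dimmer Cenpk probe differed by 0.02 ± 0.27 (SE). Jchain, the joining chain of antibody polymers, rose by 0.62 ± 0.22 (SE), from -4.44 to -4.13 in low pools to -3.95 to -3.28 in early high pools, and did not pass with normexp or without low pool 3 or early high pool 2. With quantile scaling Jchain was 0.98. The smallest p of a rise was that of 1700120J03Rik, a transcript of unstated function, with a difference of 0.57 ± 0.09 (SE, adjusted p = 0.173 in limma) that was 0.98 with quantile scaling and 0.22 with normexp. Its second probe, with 4 values, differed by -0.94 ± 0.45 (SE).

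Add2, the beta adducin of the spectrin skeleton beneath the neuronal membrane, was higher on 2 of its 4 probes. The probe with the larger rise stood at 0.50, 0.95 and 0.83 in low pools and at 1.38, 1.17 and 1.24 in early high pools, a difference of 0.50 ± 0.12 (SE, unadjusted p = 0.0017 in limma). The groups were apart, and the late high pools, at 1.27 to 1.49, lay with the early high pools while the water pools, at 0.71 to 0.89, lay with the low pools. The second such probe differed by 0.39 ± 0.10 (SE, unadjusted p = 0.0032 in limma). Both were placed across the same gap, at chr6:86060926-86068516 and chr6:86060916-86068506 in mm9, a span of 7591 bases for a probe of 60, and they share 50 bases of position with 2 differing letters. The last 30 bases of the shared stretch are shown because the probes measured nearly the same target, with the differing letters in capitals.
Add2, probe with the larger rise: agaagacagaagtcagcgaaCGcaacacag
Add2, second probe: agaagacagaagtcagcgaaGCcaacacag
The probes at chr6:86074242-86074301 and chr6:86059051-86059110 differed by 0.03 ± 0.05 and 0.11 ± 0.29 (SE). The rise of Add2 was thus seen on the pair of probes over 1 stretch and not on the others.

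Ubr2, an E3 ligase of the N-degron pathway, was likewise higher on 1 of 5 probes. That probe, at chr17:47125642-47125701, stood at -1.02, -0.77 and -0.88 in low pools and at -0.36, -0.32 and -0.61 in early high pools, a difference of 0.46 ± 0.11 (SE, unadjusted p = 0.002 in limma). Late high pools were at -0.38 to -0.10 and water pools at -0.75 to -0.57, so that water pools lay between the groups and water pool 1 reached early high pool 3. The other 4 probes differed by between -0.03 and 0.03. Pinx1, a telomerase inhibitor, stood at 1.28, 0.97 and 1.26 against 1.82, 1.67 and 1.40, a difference of 0.46 ± 0.16 (SE, unadjusted p = 0.0165 in limma), with late high pools at 1.82 to 2.16. Without low pool 2 or early high pool 1 the rise of Pinx1 did not pass. Its other probe differed by -0.20 ± 0.18 (SE). Pcdhb2, a clustered protocadherin of neurons, rose by 0.44 ± 0.11 (SE), and Etv3, a repressor of the ETS family, by 0.43 ± 0.16 (SE). Without low pool 2 the difference of Etv3 was 0.25 (unadjusted p = 0.0658 in limma), and it also did not pass without early high pool 1. Water pools of Etv3, at -2.03 to -1.70, and late high pools, at -1.91 to -1.77, lay near the early high pools, at -1.94 to -1.82, with low pools 2 and 3 below all of them. A dimmer Etv3 probe differed by -0.87 ± 0.35 (SE). The RIKEN transcripts D430022A14Rik and A330043J11Rik rose by 0.60 ± 0.19 and 0.52 ± 0.14 (SE), the latter not passing on slide 2 alone.

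**Figure D3:**
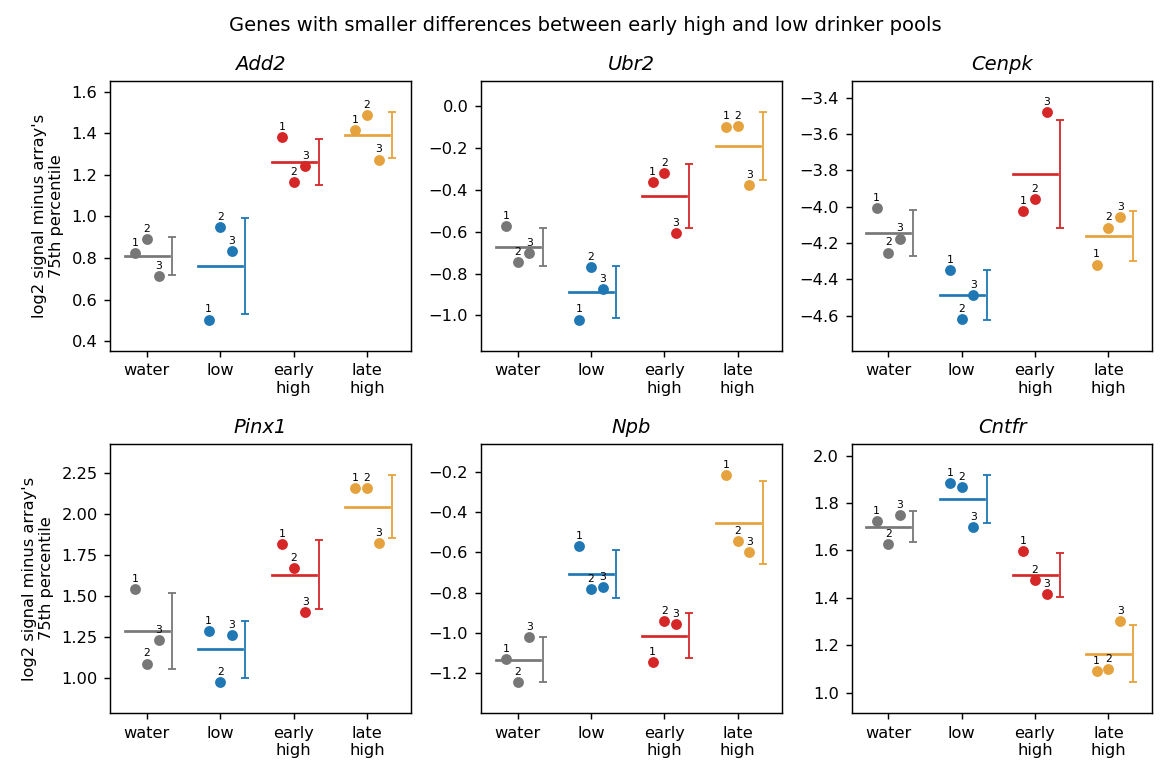
Level (log2 signal minus the 75th percentile of the array) of Add2, Ubr2, Cenpk, Pinx1, Npb and Cntfr on all 12 arrays, drawn as points with replicate numbers, means and ± 1 SD. The 4 genes that rose have every early high pool above every low pool, and Npb and Cntfr the reverse, with differences between -0.32 and 0.66.

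Genes of the hypothalamus itself gave few calls over the 6 pools, and so would lists of this size at the share of all probes. At an unadjusted p under 0.05 that share was 4.82% lower and 1.25% higher. The appetite peptides of the arcuate nucleus had 0 of 4 members past an unadjusted p of 0.05 over the 6 pools. Npy, which drives feeding, stood at 1.19, 1.11 and 1.22 in low pools and 1.54, 1.51 and 1.19 in early high pools, a difference of 0.24 ± 0.13 (SE). Npy was higher by 0.36 on slide 2 alone (unadjusted p = 0.0143 in limma). Agrp, made by the same neurons, differed by 0.13 ± 0.14 (SE). Pomc, the precursor of melanocortins and beta-endorphin in arcuate neurons and in the pituitary, stood at 5.01, 3.47 and 3.49 against 3.68, 3.45 and 3.38. Low pool 1, the pool high for Gh and Prl, was the one that stood out, and the difference was -0.49 ± 0.34 (SE) with it and 0.03 without it. Pomc differed by 0.09 on slide 2 alone. Cartpt differed by 0.08 ± 0.12 (SE).

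The 29 other hypothalamic peptides tested had a median of -0.04. At an unadjusted p under 0.05, 1 was lower and 0 higher, against 4.82% and 1.25% of all probes. That gene was Npb, a ligand of the neuropeptide B and W receptors, at -0.57, -0.78 and -0.77 in low pools and -1.14, -0.94 and -0.95 in early high pools. The difference was -0.31 ± 0.11 (SE, unadjusted p = 0.024 in limma), and -0.27 on slide 2 alone, where it did not pass, nor did it without low pool 1 or early high pool 1. Late high pools, at -0.60 to -0.22, lay on the side of the low pools, and water pools, at -1.24 to -1.02, on that of the early high pools. Vip and Kiss1, peptides of the clock nucleus and of the reproductive axis, also had no overlap, with differences of -0.23 ± 0.11 and -0.34 ± 0.16 (SE) that did not pass. The bright peptides Avp, Oxt, Hcrt, Pmch and Sst differed by 0.17, 0.15, -0.01, 0.19 and 0.04.

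Among receptors for feeding signals 1 of 20 was lower and 0 higher at an unadjusted p under 0.05, against 4.82% and 1.25% of all probes. Cntfr, the receptor subunit for ciliary neurotrophic factor, stood at 1.88, 1.87 and 1.70 in low pools and 1.60, 1.47 and 1.41 in early high pools, a difference of -0.32 ± 0.08 (SE, unadjusted p = 0.0033 in limma) that did not pass on slide 2 alone (unadjusted p = 0.081 in limma). Late high pools were lower again, at 1.09 to 1.30, and water pools lay at 1.63 to 1.75. Calcr, the calcitonin receptor, differed by -0.19 ± 0.09 (SE) and did not pass. Stress axis and steroid receptor genes had 0 of 16 past that p, with a median of -0.01, and the glucocorticoid receptor gene Nr3c1 differed by -0.09 ± 0.08 (SE).

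Transmitter genes also gave few calls over the 6 pools, beside 4.82% of all probes lower and 1.25% higher at an unadjusted p under 0.05. At those shares lists of this size would also hold few. Dopamine and serotonin genes had 0 of 24, GABA-A receptor subunits 0 of 15, and opioid and endocannabinoid genes 0 of 10 past an unadjusted p of 0.05. Of 16 ionotropic glutamate receptor subunits 1 passed, Gria4, an AMPA receptor subunit, at 0.12 ± 0.05 (SE, unadjusted p = 0.0483 in limma), a call that of the 12 fits without 1 array was kept only in that without low pool 1, and that did not pass on slide 2 alone. The enzymes of alcohol and acetaldehyde metabolism had 0 of 11, immediate early genes 0 of 21 and clock genes 0 of 18. Slide 2 alone gave other values for immediate early genes, where 18 of 21 were lower, with a median of -0.14 against 0.00 over all pools. On that slide 4 were lower at an unadjusted p under 0.05 (Fos, Junb, Egr2 and Dusp6), against 5.64% of all probes. Fos, a marker of recent neuronal activity, stood at -2.46, -1.46 and -1.48 in low pools and at -2.32, -1.85 and -0.66 in early high pools. Its difference was 0.19 ± 0.56 (SE) over all pools and -0.62 on slide 2 alone (unadjusted p = 0.0358 in limma), so that it turned with the pools compared. Clock genes had 1 call on slide 2 alone and 2 with slide as a block, where 5.64% and 12% of all probes were lower. The 30 beta-adrenergic and calcium channel genes had 0, and of the 13 genes that the study followed by PCR 0 passed, with differences from -0.64 for Itga4 to 0.14 for Igf1. Itga4 was -0.33 without low pool 2. With slide as a block 4 of the 13 PCR genes were lower at an unadjusted p under 0.05, where 12% of all probes were lower and 1.41% higher, with a median of -0.22 against -0.10. Without low pool 1 there were 5, where 13.9% of all probes were lower and 1.21% higher. On slide 2 alone there was 1, Jup, a junction protein, at -0.36. Slide as a block, with that share of 12% of all probes lower, gave calls for dopamine and serotonin genes (4 of 24), stress axis genes (3 of 16), beta-adrenergic and calcium channel genes (3 of 30), GABA-A subunits (2 of 15), opioid and endocannabinoid genes (2 of 10), immediate early genes (3 of 21) and receptors for feeding signals (3 of 20), all lower. Other lists had calls both ways in that fit, with 4 lower and 3 higher of 31 immune signaling genes, and 3 lower and 1 higher both among 29 hypothalamic peptides and among 19 hypothalamic transcription factors. The reference genes Actb and Gapdh differed by 0.07 ± 0.08 and 0.16 ± 0.06 (SE), and Gapdh, at 6.04 to 6.09 in low and 6.17 to 6.34 in early high pools, had an unadjusted p of 0.0325 in limma that did not pass with normexp, on slide 2 alone, or without low pool 1, 2 or 3 or early high pool 1.

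Immune signaling genes had more separated falls than rises. Of 31 tested, 2 were lower and 1 higher at an unadjusted p under 0.05, against 4.82% and 1.25% of all probes. Every early high pool lay below every low pool in 9 and above in 1, beside 6.08% and 3.37% of probes with a value on all 6 arrays. Of the 31, 24 were well above background on all 6 arrays. Myd88, the adaptor of Toll-like receptors, stood at -1.24, -1.13 and -0.94 in low pools and -1.42, -1.31 and -1.40 in early high pools, a difference of -0.27 ± 0.09 (SE, unadjusted p = 0.0134 in limma), which did not pass without low pool 3. Tlr2, Tlr7 and Tlr9 had no overlap and differences of -0.26, -0.40 and -0.16 that did not pass. Tnf was not well above background on any of the 6 arrays, so no fold is given. Tlr1, a partner of Tlr2, was the gene that rose, by 0.68 ± 0.28 (SE), with overlap, at 1.13 with quantile scaling, and it did not pass without low pool 2 or 3 or early high pool 2 or 3. Of the 31 genes 20 were lower, a share like that of the named genes (11841 of 18148). The median of the list was -0.06, and -0.01 with 16 lower after quantile scaling. That of 22 heat shock genes was -0.05, where Hspe1, a mitochondrial chaperonin, rose by 0.24 ± 0.09 (SE, unadjusted p = 0.0253 in limma) but did not pass without low pool 2 or 3 or early high pool 2.

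Cell type markers gave few calls, as lists of their size would at the shares over all probes, 4.82% lower and 1.25% higher. Neuronal markers had 0 of 13 past an unadjusted p of 0.05 and a median of 0.01, astrocyte markers 0 of 10 and 0.03, microglial markers 0 of 13 and 0.01, and markers of ependyma and tanycytes 0 of 8 and -0.04. The 19 hypothalamic transcription factors had 0 and a median of -0.11, with Nkx2-1 at -0.09 ± 0.18 (SE). Their median turned to 0.02 without low pool 2, with 8 of 18 lower. Of 15 myelin and oligodendrocyte genes 11 were higher and 0 passed, with a median of 0.05. There were 7 higher and 7 lower without low pool 2, with a median of -0.005. Without early high pool 3 there were 8 of 15 higher, and without early high pool 2 14 of 15, so the count depended on single pools. Their summed level was 262 to 277 times the 75th percentile in early high pools and 247 to 256 in low pools. Mbp, of the myelin sheath, differed by 0.13 ± 0.09 and Olig1, a factor of the oligodendrocyte lineage, by 0.15 ± 0.07 (SE). In the wall of vessels Acta2, smooth muscle actin, was 0.25 ± 0.09 (SE) higher with an unadjusted p of 0.0206 in limma, which did not pass without low pool 2 or 3 or early high pool 2, and the list's median was -0.03. The 4 genes of the Y chromosome differed by between -0.25 and 0.03.

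Thalamic genes depended on which pools were compared. The thalamus lies above the hypothalamus, and the list holds genes of its relay nuclei. Over all 6 pools 0 of 9 passed an unadjusted p of 0.05, with a median of -0.35. On slide 2 alone all 9 were lower in early high drinkers, 7 of them at an unadjusted p under 0.05 against 5.64% of all probes in that direction, with a median of -0.78. Prkcd, a protein kinase C of relay neurons, stood at -1.24, 0.83 and 1.48 in low pools and at -0.91, -1.10 and 1.195 in early high pools. Low pools 2 and 3 and early high pool 3 were thus high, and low pool 1 and early high pools 1 and 2 were low. Tnnt1, a troponin gene expressed in the thalamus, had the same split, at -2.36, -0.19 and 0.34 against -2.10, -2.29 and 0.01. Gbx2, a homeodomain factor of thalamic development, stood at -2.78, -1.45 and -1.52 against -2.72, -2.997 and -1.75. The differences on slide 2 were -2.16, -2.27 and -1.37 for these 3 genes, and -0.63, -0.72 and -0.57 over all pools. Without low pool 3 the list's median was -0.07. The summed level of the list overlapped, at 16.1 to 26.7 in low and 15.6 to 27.2 in early high pools. The part of these genes in the other differences was not tested.

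**Figure D4:**
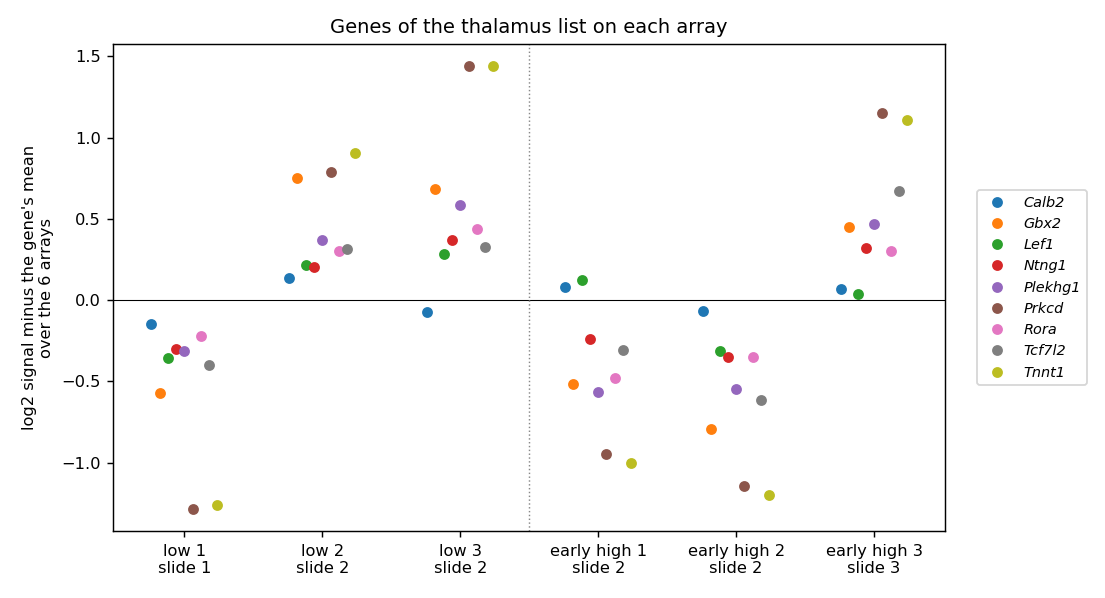
Level of 9 thalamus genes on the 6 arrays of the comparison, as log2 signal minus the mean of the gene over those arrays, with the slide of each array named below it. Prkcd and Tnnt1 lie high in low pools 2 and 3 and early high pool 3 and low in the other 3 pools, so that the split crosses the drinking groups.

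Markers of the remaining neighbours gave small values. Over the 6 pools 11841 of 18148 named genes had a lower mean, and 4.82% of all probes were lower at an unadjusted p under 0.05. Choroid plexus genes had a lower mean in 7 of 7 over the 6 pools and in 4 of 7 on slide 2 alone, with medians of -0.18 and -0.16. Over the 6 pools 1 passed an unadjusted p of 0.05, the water channel Aqp1 at -0.70 ± 0.25 (SE), which was well above background on 3 of the 6 arrays and did not pass with quantile scaling (-0.21), on slide 2 alone, or without low pool 1 or 2 or early high pool 1 or 2. Ttr, the defining transthyretin gene, stood at -1.74, -4.30 and -3.75 in low pools and -4.00, -4.37 and -6.36 in early high pools, a difference of -1.65 ± 1.25 (SE) that was -0.88 without low pool 1 and -0.16 on slide 2 alone. Cortical and hippocampal markers had a lower mean in 9 of 10, with a median of -0.06, and in 5 of 10 with quantile scaling. The factor Neurod6 was the 1 past an unadjusted p of 0.05, at -0.54 ± 0.18 (SE), with -0.33 without early high pool 1 and -0.11 with quantile scaling, where it did not pass, nor did it on slide 2 alone. It was well above background on 3 of the 6 arrays. Striatal, blood and meningeal lists had 0 of 8, 0 of 5 and 0 of 8, with medians of -0.03, -0.01 and -0.01. Set against these, the pituitary list had the lowest median of all lists tested with 3 against 3 pools.

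**Figure D5:**
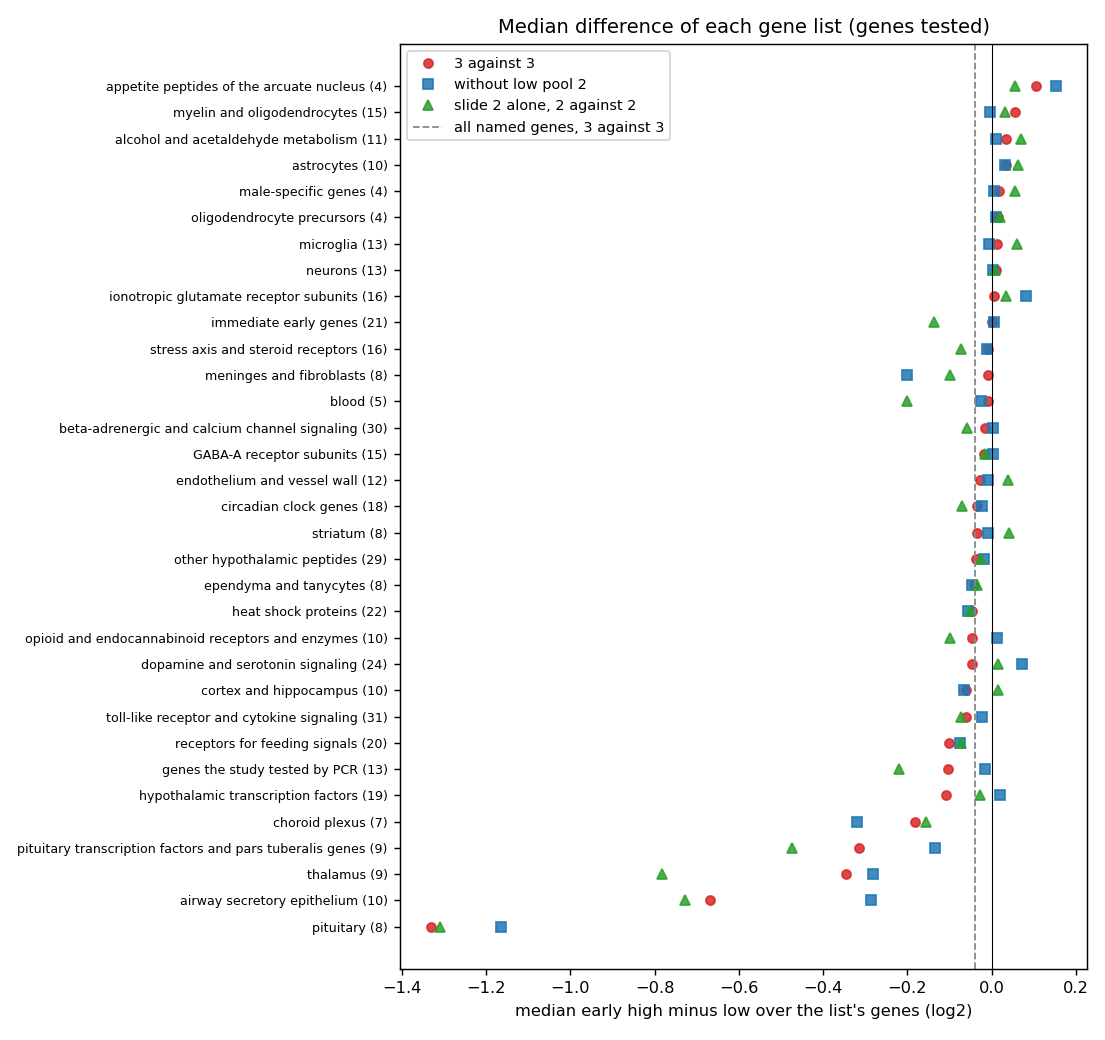
Median early high minus low difference (log2, horizontal axis) of each gene list, with the number of genes tested in brackets, over 3 against 3 pools, without low pool 2, and on slide 2 alone, with the median of all named genes as a dashed line. The pituitary list lies between -1.33 and -1.17 in all 3 settings, the thalamus list falls to -0.78 on slide 2 alone, and most others lie within 0.2 of 0 in each setting.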

How the data were processed

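Total RNA of mouse hypothalamus pools was labelled with Cy3 and hybridized to 1-color Agilent whole mouse genome arrays. The files deposited were scanner output, 1 per array, in which signal intensity on a linear scale had been corrected for background and detrended by the authors with Agilent Feature Extraction (10.5.1.1 in the file headers), with no scaling between arrays, and a table of signal intensity per probe. Following the study's methods, non-uniform outlier spots were dropped, as was any spot whose signal was under 2 times its noise. Intensities were then taken to log2, the 75th percentile of each array was subtracted, and spots of 1 probe were averaged.

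Testing required that both groups had values on more than 50% of their arrays. The contrast was fitted with limma 3.58.1 (R 4.3.3) over all 12 arrays in 4 groups, with Benjamini-Hochberg adjustment over 32363 probes. An exact permutation test over the 20 splits of 3 against 3 cannot go below 0.1, the value of every separated gene. On simulated data for this contrast, 149 of 200 probes changed by 1 on the log2 scale were recovered with 5 false calls among 32363 probes. Of 41174 probes, 25263 were named through RefSeq accessions (GRCm38.p6, names and promoters), 3574 of them with another symbol in the array files, and positions are mm9 as the files give them. In lists, a gene with several probes is described by the tested probe of highest mean. Separated rises and falls were ranked over probes. The number of arrays limits the precision.

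Named genes were up to 10 probes past the adjusted p, the 10 largest separated rises and falls well above background, the 3 smallest p of each list (all members of lists of up to 5), the PCR genes, and Actb and Gapdh. Others were chosen after their values were seen. Members and lists were chosen with earlier results of these data known, and 2 lists (pituitary regulators, airway epithelium) after the values here. Replicate numbers did not pair the pools (correlations of deviations -0.08, 0.17 and 0.00), so no block was used. Alternatives were other scalings, background, filters, tests, blocks and left-out arrays. Values of some list members are not reported here.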

Additional observations from a re-analysis of the deposited data

How the results depend on the processing

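The count of 2 probes at an adjusted p under 0.05 was 0 with quantile scaling, cyclic loess, no signal/noise filter, probes well above background on all 6 arrays (also without low pool 2), the 6 arrays alone and the methods' t-test, and also 0 with the replicate number as a block. It was 1 with normexp, 4 with median scaling, 44 with slide and 1311 with scan day as a fixed block, and 0 to 119 without 1 array, with 119 without low pool 1. The count of 1965 at an unadjusted p under 0.05 was 1171 for probes well above background on all 6 arrays, 1259 without low pool 2 on those probes, 4343 with slide and 5433 with scan day as a block, 1855 with the replicate block and 1319 to 4734 without 1 array (1319 without low pool 3, 4734 without low pool 1, 1324 without early high pool 2). On slide 2 alone the adjusted count of 0 became up to 1110 and the 2121 unadjusted calls 999 to 6052 without 1 array (1110 and 6052 without low pool 3), where the lone pool of a group is assumed to vary like the other. The methods' t-test gave 1531 probes before and 0 after adjustment. With all probes of a gene averaged, 4 rises turned, 1700120J03Rik to -0.19, Etv3 to -0.22, Gria4 to -0.0231 and Acta2 to -0.0922. Of the named probes' other values, 142 newly passed and 111 no longer passed an unadjusted p of 0.05, 3127 kept their side, 80 untested values moved by more than the spread between pools and no others reversed. The cause of these shifts was not tested. Cga, Cyp2f2 and Nt5dc3 stayed lower and past that p under the other limma alternatives, while the methods' t-test gave an unadjusted p of 0.0676 for Cga, 0.0628 for Cyp2f2 and 0.014 for Nt5dc3 as a check chosen after seeing the data. Dim probes are limited by background, highest in low pool 2.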

Other observations

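Bpifa1, a secreted protein of the upper airway epithelium, was named after its value was seen. It stood at -0.82, -2.95 and -1.54 in low pools and at -6.24 and -5.64 in early high pools 1 and 2, with the value of early high pool 3 missing, with an unadjusted p of 0.0027 in limma. Every low array was well above background but only 1 of 3 early high arrays, so the size of its difference is not well measured and none is given. Water pools lay at -5.21 and -4.62 and late high pools at -3.82 to -0.54, so low and late high pools were high and water and early high pools low.

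Cyp2f2 and Wfdc2 are also known from airway secretory cells, and a list of 12 such genes was put together after these values were seen, so its counts are a description alone. Of 10 members tested all had a lower mean in early high drinkers, beside 11841 of 18148 named genes, with a median of -0.67. At an unadjusted p under 0.05 there were 5 (Bpifa1, Wfdc2, Cyp2f2, Bpifb1 and Scgb3a2), against 4.82% of all probes in that direction. With quantile scaling 8 of 10 were lower, with a median of -0.36. Bpifb1 stood at -3.93, -3.15 and -3.50 in low pools against -4.05, -3.94 and -4.12 in early high pools, and Scgb3a2 at -2.78, -2.14 and -2.45 against -2.62, -2.91 and -3.07. Without low pool 2 their differences were -0.32 and -0.25, and neither passed. Scgb3a2 did not pass on slide 2 alone, and Bpifb1 was -0.34 with quantile scaling. Scgb1a1, the defining gene of airway club cells, differed by -0.38 ± 0.25 (SE) and Lypd2 by -0.05 ± 0.16 (SE). The summed level of the list was 1.51 to 1.71 times the 75th percentile in low pools and 0.660 to 0.838 in early high pools, with 0.864 to 1.14 in water and 1.02 to 1.52 in late high pools. Without low pool 2 the median was -0.29, with 3 members past that p and 7 of 8 lower.

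Olfactory and vomeronasal receptor genes, which hypothalamus is not known for, followed the dim probes. Of 251 tested 27 were lower (10.8%) and 4 higher (1.59%) at an unadjusted p under 0.05. The shares were 4.82% and 1.25% over all probes, and 11.6% and 1.08% over the dimmest 8091. Without low pool 2 there were 5 lower and 5 higher receptor genes.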
